A study of Mus musculus with 18 samples.

Results

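Interferon-stimulated genes were read in sorted mouse peritoneal macrophages that met 1 or 2 doses of LPS (bacterial lipopolysaccharide), or LPS after Metformin. The 37 genes were chosen by symbol: 34 genes known to be induced by interferon, the cytokine gene Ifnb1 and the receptor genes Ifnar1 and Ifnar2. All 37 were found among the 55573 genes of the count table, and 36 had enough counts to be tested among 13443 tested genes. Ifnb1 did not. The name of the set rests on known biology, since no group was treated with interferon or lacked its receptor.

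The libraries came from C57BL/6 mice of 2 genotypes. Zeb1WT mice carried floxed Zeb1 (Zeb1f/f) and no Cre, and Zeb1∆M mice carried the same floxed Zeb1 with LysM Cre, so floxed alleles were present in every group. LysM Cre sits in the lysozyme gene Lyz2 and is active in macrophages, monocytes and neutrophils, and no group had Cre without floxed Zeb1. Freshly isolated lavage cells were sorted as CD11b+ F4/80+, with 2 to 3 mice pooled in each sample. Mice of the LPS groups had PBS and then 1 dose of LPS, those of the LPS + LPS groups had 2 doses, and those of the Metformin + LPS groups had Metformin before 1 dose. Each of the 6 groups held 3 libraries and every group received LPS, so a rise over resting cells could not be read. The labels used here give no age.

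Type I interferons such as interferon beta are released by macrophages after LPS engages its receptor TLR4 and the adaptors TICAM2 (TRAM) and TICAM1 (TRIF). They bind IFNAR1 and IFNAR2 on the same or neighbouring cells, whose kinases JAK1 and TYK2 phosphorylate STAT proteins. With IRF9 these form a complex that binds the interferon-stimulated response element (ISRE) in promoters of genes whose products block viral replication. Macrophages exposed to LPS again respond less at many such genes, a state known as endotoxin tolerance.

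The ISRE is shown here in members that carry the results, since it is the stretch through which the pathway is known to act. The RefSeq promoter table (build GRCm38.p6, 250 bases before the start) held 28 of the 37 members. An ISRE core, GAAANNGAAA on either strand, was present in 12 of these 28 promoters (42.9%) and in 821 of all 27025 promoters (3.04%). The gamma-activated sequence core, TTCNNNGAA on either strand, was present in 7 of 28 (25%) and in 1940 of all promoters (7.18%). Cores may overlap each other. In the 8 stretches of 90 bases that follow, printed 5′ to 3′ along the gene, capitals mark ISRE cores, and a core on the opposite strand appears as its reverse complement. The positions are chr4:156200841-156200930, minus strand for Isg15; chr19:34640754-34640843, plus strand for Ifit1; chr19:34583350-34583439, plus strand for Ifit3; chr19:34607746-34607835, plus strand for Ifit3b; chr12:26456523-26456612, minus strand for Rsad2; chr5:120907526-120907615, minus strand for Oas1a; chr7:104465194-104465283, minus strand for Trim30a; and chr8:71537550-71537639, minus strand for Bst2. All lie upstream of the RefSeq start.
Isg15: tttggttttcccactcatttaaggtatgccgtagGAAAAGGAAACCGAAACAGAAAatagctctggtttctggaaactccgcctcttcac
Ifit1: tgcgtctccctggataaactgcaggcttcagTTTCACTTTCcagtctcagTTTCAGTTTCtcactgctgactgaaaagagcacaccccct
Ifit3: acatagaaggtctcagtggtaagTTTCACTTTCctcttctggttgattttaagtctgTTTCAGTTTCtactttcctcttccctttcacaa
Ifit3b: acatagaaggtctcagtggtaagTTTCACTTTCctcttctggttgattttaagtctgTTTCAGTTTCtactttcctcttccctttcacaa
Rsad2: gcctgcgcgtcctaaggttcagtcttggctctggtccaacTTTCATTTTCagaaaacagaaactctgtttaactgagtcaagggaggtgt
Oas1a: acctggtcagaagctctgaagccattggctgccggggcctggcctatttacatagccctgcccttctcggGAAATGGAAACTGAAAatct
Trim30a: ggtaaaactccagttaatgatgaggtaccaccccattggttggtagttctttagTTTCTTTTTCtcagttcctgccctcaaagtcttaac
Bst2: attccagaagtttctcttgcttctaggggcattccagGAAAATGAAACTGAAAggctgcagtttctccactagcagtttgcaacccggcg

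Isg15 showed 3 overlapping cores, and Ifit1, Ifit3 and Ifit3b showed 2 each on the opposite strand. Ifit3 and Ifit3b had the same 90 bases, and their upstream sequences were identical at 188 of 218 bases (86.2%) when shifted by 32 bases. A match of letters is not a measured binding site, and the libraries here do not measure binding.

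The 4 IFIT genes lie next to one another on chromosome 19, between positions 34550694 and 34650009 (GENCODE, GRCm38), and the 6 OAS genes on chromosome 5. Sequence shared with other genes, at a cut of over 10%, limits 7 members, because reads of one gene could be counted for another. Of the 50-base words of the transcripts, 57.6% of those of Oas1a, 51.6% of Oas1g, 51.2% of Ifit3, 45.0% of Ifit3b, 23.5% of Herc6, 14.6% of Slfn8 and 11.6% of Rtp4 were also found in another gene. For Herc6 and Rtp4 the other genes were Gm45193 and Gm45338. Ifitm3 stood at the cut, with 10%, and in 15 members no word was shared.

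Total counts ran from 14053706 to 30570439 per library. Levels are given as CPM, counts relative to library size after scaling with TMM factors, which correct for composition. These factors were 0.87 to 1.06 in the LPS libraries, 1.42 to 1.56 in LPS + LPS, and, after Metformin, 0.45 to 0.71 (Zeb1WT) and 0.84 to 0.88 (Zeb1∆M). The 6 Metformin + LPS libraries also differ from the other 12 in the prefix of their library codes, and a sequencing batch cannot be told apart from Metformin. Zeb1, the deleted gene, stood at 6.41, 6.69 and 7.21 CPM in Zeb1WT LPS and 2.30, 3.01 and 1.38 in Zeb1∆M LPS; at 0.912, 2.52 and 1.07 against 0.738, 0.926 and 0.758 in LPS + LPS; and at 12.6, 13.0 and 12.3 against 4.21, 4.79 and 3.92 in Metformin + LPS. It was lower in every Zeb1∆M library after LPS and Metformin + LPS, and the LPS + LPS libraries of both genotypes overlapped (edgeR adjusted p = 0.35). All 6 macrophage markers listed, among them Adgre1 and Csf1r, were counted in every group. In such sorted bulk RNA, fewer cells of a type and less RNA per cell cannot be told apart. The p-values measure the spread between pools. Replicate 1 of Zeb1WT LPS + LPS stood apart in its neutrophil markers (921 CPM in sum, against 3430 and 2630 in replicates 2 and 3) and was kept; without it 35 members were still lower in LPS + LPS of Zeb1WT.

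**Figure D1:**
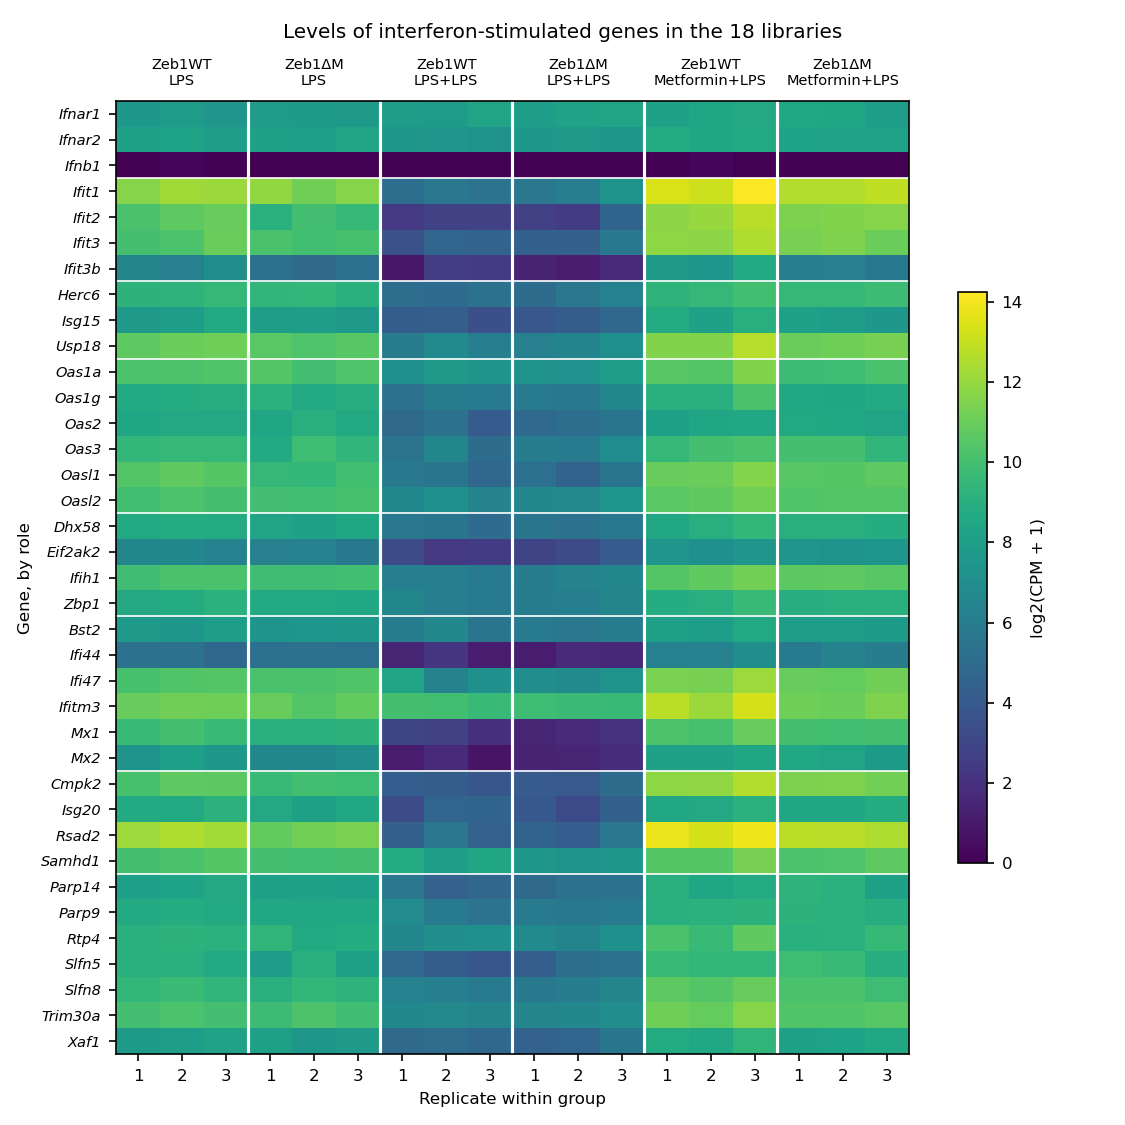
Levels of the 37 genes (rows, ordered by role) in the 18 libraries (columns, grouped by genotype and treatment, replicates 1 to 3), as log2(CPM + 1) on a colour scale from dark (0) to yellow (high). The LPS + LPS columns are darker in all tested rows but Ifnar1, and the Ifnb1 row is at or near 0 throughout.

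After a single LPS dose, the 34 induced genes made up 2.96 to 3.49% of all counts in Zeb1WT and 2.43 to 2.58% in Zeb1∆M. In LPS + LPS they made up 0.358 to 0.458% in Zeb1WT and 0.368 to 0.496% in Zeb1∆M. In Metformin + LPS the share was 3.96 to 4.78% in Zeb1WT and 3.82 to 4.07% in Zeb1∆M. The LPS + LPS libraries thus lay below every other library, and the Metformin + LPS libraries above all LPS libraries of either genotype.

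Per kb of exon, Ifitm3, which restricts entry of viruses at endosomes, had the highest mean level in Zeb1WT LPS, at 3183 CPM per kb. Ifit1, which binds foreign RNA caps, followed at 1549 and Rsad2 (viperin, a radical enzyme that makes an antiviral nucleotide) at 1190 CPM per kb. At the lower end stood Eif2ak2 (the kinase PKR) at 17.6 and Ifi44 at 5.80 CPM per kb. Ifnar2 and Ifnar1 stood at 83.4 and 33.2 CPM per kb.

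The ligand itself was barely counted. Ifnb1 had 0, 4 and 1 counts in the 3 Zeb1WT LPS libraries, 3 counts in Zeb1WT Metformin + LPS replicate 2, and 0 in the other libraries. A count of 0 allows up to 3 counts, so a difference in Ifnb1 was not detectable at this depth.

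A second LPS dose was compared with a single dose to read tolerance of these genes. A fall or rise here is a difference between groups of separate pools of mice, not a change followed over time. In Zeb1WT, 35 of 36 tested members were lower in LPS + LPS (edgeR quasi-likelihood test, Benjamini-Hochberg over all genes, adjusted p under 0.05), against 18% of all tested genes called lower, and 0 were higher (18.6% of all genes). In Zeb1∆M it was again 35 lower, against 16.9% of all genes, and 0 higher (15.8%). The 35 were the same genes in both genotypes, and Ifnar1 was the one not called. The median log2 fold change over members was -3.68 in Zeb1WT and -3.26 in Zeb1∆M, beside 0.08 and 0.01 over all genes. In Zeb1WT 22 members were more than 10-fold lower and 7 more than 50-fold, and in Zeb1∆M 17 and 4.

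IFIT proteins bind viral RNA and associate with one another. Ifit2 stood at 1134, 1658 and 1981 CPM in Zeb1WT LPS and at 4.19, 6.15 and 5.77 in LPS + LPS. Its Zeb1∆M libraries stood at 551.5, 1010 and 731.7 CPM after LPS and at 5.57, 4.67 and 22.7 after LPS + LPS. No LPS + LPS library came near any LPS library, and replicate 3 of Zeb1∆M stood above the other LPS + LPS libraries. The fall was 296-fold in Zeb1WT (log2 fold change -8.21 ± 0.60 standard error, SE, edgeR adjusted p = 1.2e-08) and 69.9-fold in Zeb1∆M (-6.13 ± 0.54, edgeR adjusted p = 1.6e-07). Ifit1 fell from 3284, 4719 and 4341 CPM to 35.1, 50.6 and 41.7 in Zeb1WT, and from 3993, 2264 and 3285 to 48.5, 66.2 and 152.6 in Zeb1∆M. The log2 fold changes of Ifit1 were -6.60 ± 0.46 and -5.16 ± 0.43. Replicate 3 of Zeb1∆M LPS + LPS again stood highest in its group. Ifit3 fell as well (log2 fold change -6.22 and -5.12 in Zeb1WT and Zeb1∆M), as did Ifit3b (-4.78 and -4.28).

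Rsad2 stood at 4491, 6036 and 4950 CPM in Zeb1WT LPS and 19.7, 47.9 and 21.1 in LPS + LPS. In Zeb1∆M it stood at 1807, 2384 and 2658 CPM after LPS and 22.0, 18.4 and 46.5 after LPS + LPS. The groups were far apart in both genotypes, at 175-fold (-7.45 ± 0.46, edgeR adjusted p = 1.8e-09) and 78.9-fold (-6.30 ± 0.44, edgeR adjusted p = 1.3e-08). Its neighbour on chromosome 12, Cmpk2, a mitochondrial nucleotide kinase, fell from 1080, 1688 and 1640 CPM to 18.3, 17.2 and 13.1 in Zeb1WT, 90.7-fold. In Zeb1∆M Cmpk2 fell from 776.4, 970.0 and 893.3 CPM to 16.1, 14.7 and 31.3, 42.5-fold. Both neighbours thus stood far below their LPS levels in LPS + LPS of each genotype. Of the other enzymes of nucleotides and RNA, Isg20, an RNA exonuclease, changed by -4.62 in Zeb1WT and -4.55 in Zeb1∆M. Samhd1, which hydrolyses dNTPs, changed by -1.83 and -2.53.

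Mx1 encodes a dynamin-like GTPase, and its C57BL/6 allele is known to lack part of the coding sequence. Mx1 stood at 769.7, 1040 and 808.4 CPM in Zeb1WT LPS and 6.93, 5.88 and 2.76 in LPS + LPS. The Zeb1∆M libraries stood at 497.4, 480.9 and 594.8 CPM and then at 1.81, 2.32 and 3.17. This was the deepest fall of any member in Zeb1∆M, 217-fold (-7.76 ± 0.39, edgeR adjusted p = 9.5e-10), and 168-fold in Zeb1WT (-7.40 ± 0.38, edgeR adjusted p = 3.6e-10). The related Mx2 was 157-fold lower in Zeb1WT and 53.9-fold in Zeb1∆M. Ifi44 changed by -3.97 and -4.30, and Ifi47, an immunity-related GTPase, by -2.82 and -3.22.

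Among the induced genes, those of the membrane proteins Ifitm3 and Bst2 fell least in fold. Ifitm3 stood at 1964, 2319 and 2190 CPM in Zeb1WT LPS and still at 1051, 960.0 and 783.1 in LPS + LPS, a log2 fold change of -1.21 ± 0.26 (edgeR adjusted p = 0.0012). In Zeb1∆M it stood at 1986, 1376 and 1792 CPM and then at 894.8, 827.7 and 805.1, a change of -1.03 ± 0.26 (edgeR adjusted p = 0.0050). The LPS and LPS + LPS libraries did not overlap, but Ifitm3 remained abundant. Bst2 (tetherin, which holds budding virions at the cell surface) moved from 203.3, 183.2 and 255.4 CPM to 63.7, 94.2 and 45.0 in Zeb1WT and from 168.0, 178.2 and 183.0 to 57.3, 51.2 and 65.3 in Zeb1∆M. Its log2 fold changes were -1.66 ± 0.24 and -1.61 ± 0.24, close to 3-fold in each genotype.

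All 3 members of the ISG15 system fell, with medians of -4.23 in Zeb1WT and -3.61 in Zeb1∆M. Usp18, which removes ISG15 from proteins and restrains the receptor, stood at 1683, 2152 and 2200 CPM in Zeb1WT LPS and 62.2, 112.8 and 70.4 in LPS + LPS. In Zeb1∆M it stood at 1537, 1273 and 1517 CPM and then at 73.1, 83.7 and 140.6. The groups did not overlap, and the log2 fold changes were -4.62 ± 0.36 and -3.86 ± 0.35. Isg15, the ubiquitin-like protein, changed by -4.23 and -3.61 and Herc6, which attaches it in mice, by -4.19 and -3.60.

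OAS enzymes make 2′-5′ oligoadenylates that activate an RNase. All 6 OAS members fell, with medians of -3.49 and -3.04. Oasl1, a member without that activity that restrains translation of Irf7 mRNA in mice, stood at 1372, 1761 and 1427 CPM in Zeb1WT LPS and 52.4, 44.6 and 26.4 in LPS + LPS. The Zeb1∆M libraries stood at 722.7, 703.1 and 964.9 CPM and then at 35.4, 22.3 and 45.6. It had the largest fall of the family in both genotypes (-5.21 and -4.53). Oas1a differed less, at 1196, 1256 and 1331 CPM against 141.5, 198.6 and 165.5 in Zeb1WT and 1396, 1006 and 1267 against 153.6, 146.3 and 238.5 in Zeb1∆M. Its log2 fold changes were -2.90 ± 0.29 and -2.77 ± 0.28.

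The 4 sensors of RNA and DNA all fell, with medians of -3.65 and -2.77. Ifih1 (MDA5, a sensor of long double-stranded RNA) stood at 937.3, 1141 and 1145 CPM in Zeb1WT LPS and 68.7, 69.8 and 54.6 in LPS + LPS. In Zeb1∆M the levels were 937.7, 936.6 and 960.8 CPM and then 65.6, 82.7 and 92.0. The spread within each group was small beside the changes of -4.06 and -3.56. Dhx58 (LGP2, a regulator of MDA5) moved from 399.2, 449.6 and 439.4 CPM to 51.1, 44.7 and 30.95 in Zeb1WT and from 314.5, 288.0 and 343.7 to 45.2, 38.5 and 52.5 in Zeb1∆M, 10.2-fold and 6.95-fold lower. Eif2ak2 changed by -3.96 and -2.74 and Zbp1, a sensor of Z-form nucleic acids, by -2.69 and -2.42.

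The 7 members of the PARP, TRIM, SLFN and remaining families all fell. Trim30a, a mouse TRIM protein, stood at 1030, 1196 and 1020 CPM in Zeb1WT LPS and 97.8, 104.3 and 88.4 in LPS + LPS. In Zeb1∆M it stood at 885.6, 1227 and 949.4 CPM and then at 88.0, 100 and 123.7. Both genotypes thus ended near the same level. Rtp4, a chaperone of receptors, fell least of the 7, from 533.9, 582.3 and 542.2 CPM to 93.9, 128.5 and 143.4 in Zeb1WT and from 636.2, 406.7 and 458.3 to 106.0, 86.2 and 142.4 in Zeb1∆M. Slfn5 had the largest change of the 7 in each genotype (-4.57 and -3.49).

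The receptor chains differed from the induced genes. Ifnar1 stood at 193.7, 230.2 and 168.4 CPM in Zeb1WT LPS and 253.4, 238.1 and 323.9 in LPS + LPS, and at 223.4, 219.9 and 208.2 against 244.6, 291.0 and 312.8 in Zeb1∆M. All LPS + LPS libraries stood above those of LPS, yet the change missed the threshold at 0.46 ± 0.19 (edgeR adjusted p = 0.061) and 0.38 ± 0.19 (edgeR adjusted p = 0.13). With scaling by library totals alone it was called higher in both genotypes (1.12 and 0.97). Ifnar2 stood at 281.5, 302.6 and 248.4 CPM against 184.2, 174.3 and 156.9 in Zeb1WT, and at 284.7, 265.6 and 321.7 against 193.0, 204.9 and 185.2 in Zeb1∆M. Ifnar2 was lower in every LPS + LPS library, by 0.69 in Zeb1WT (edgeR adjusted p = 0.0013) and in Zeb1∆M by 0.58 (edgeR adjusted p = 0.0057), whereas library totals alone left it uncalled at -0.04 and 0.01.

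**Figure D2:**
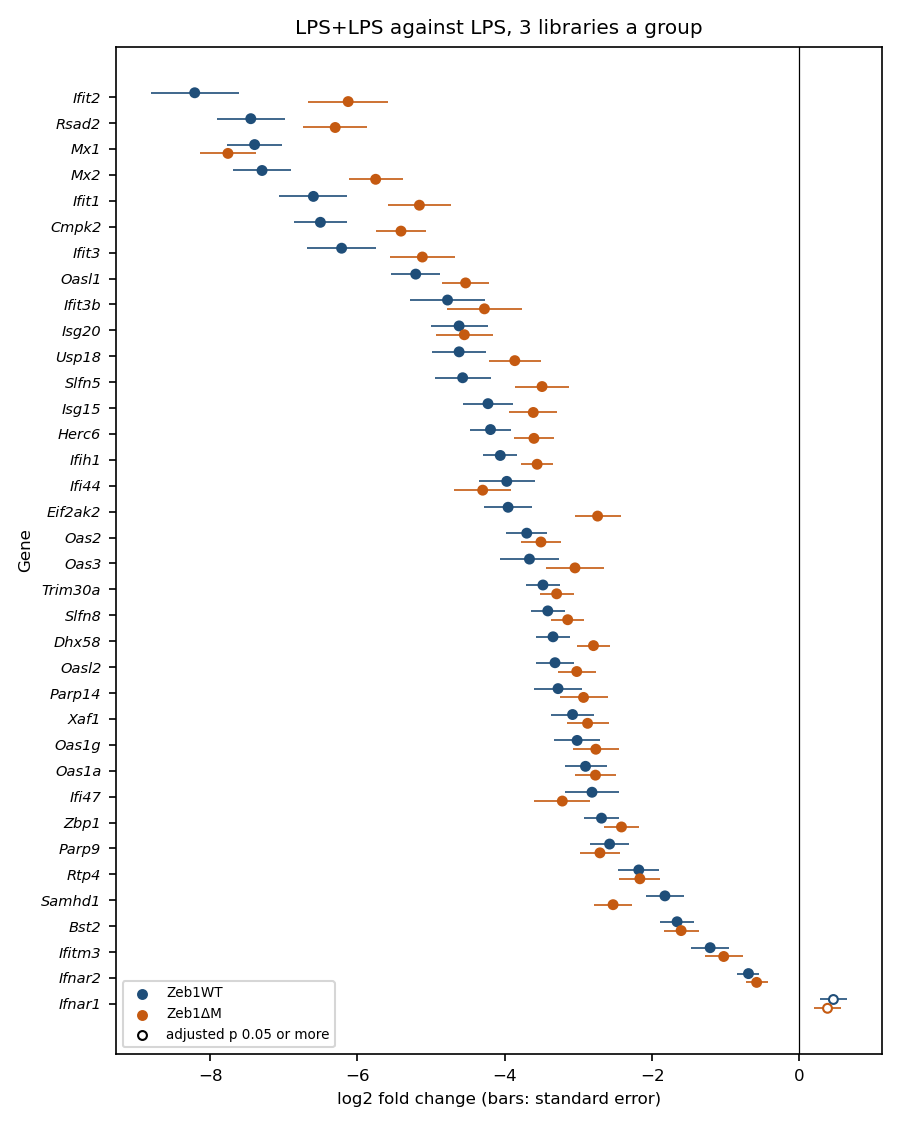
Log2 fold change of LPS + LPS against LPS for each of the 36 tested genes, with standard errors as bars, in Zeb1WT (blue) and Zeb1∆M (orange); open points missed an adjusted p of 0.05. All genes but Ifnar1 lie left of 0, from Ifitm3 and Ifnar2 at the right to Ifit2 at -8.21 in Zeb1WT and Mx1 at -7.76 in Zeb1∆M.

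Most listed genes of the receptor pathway fell too, among them genes that drive it and genes that restrain it. Over all genes in this comparison, 18% were lower and 18.6% higher in Zeb1WT, and 16.9% and 15.8% in Zeb1∆M. Of 10 listed for interferon receptor signalling, 8 were lower and 1 higher in LPS + LPS in each genotype. Stat2 moved from 334.4, 356.3 and 398.3 CPM to 55.7, 37.2 and 36.9 in Zeb1WT (-3.07 ± 0.24, edgeR adjusted p = 2.7e-08), and its change in Zeb1∆M was -2.56 ± 0.24. Jak1 was 2.49-fold and 2.25-fold lower and Irf9 changed by -1.19 and -1.42 in Zeb1WT and Zeb1∆M. The one that rose was Ptpn6, the phosphatase SHP-1 (1.89 and 1.62), named after its values were seen. Socs1 was 2.33-fold and 4.96-fold lower in Zeb1WT and Zeb1∆M, and Socs3 3.74-fold and 3.13-fold. Ptpn2 was 2.27-fold and 2.29-fold lower and Pias1 1.36-fold and 1.41-fold. These too were named after their values were seen. Like Ptpn6 they are known to restrain the pathway, so its restraining genes did not move in one direction. Of 10 genes from the LPS receptor to interferon beta, 5 were lower and 1 higher in Zeb1WT, and 4 and 1 in Zeb1∆M. Irf7, the factor that amplifies interferon transcription, moved from 2174, 2617 and 2958 CPM to 186.1, 398.5 and 181.9 in Zeb1WT (-3.34), and changed by -2.71 in Zeb1∆M. Ly96, the LPS-binding partner of TLR4, changed by -1.40 and -1.53, the kinase gene Tbk1 was 1.92-fold and 2.02-fold lower, and the adaptor gene Ticam2 rose by 2.38 and 2.59.

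A list of 53 other tested interferon-induced genes showed 50 lower and 1 higher in Zeb1WT and 49 and 1 in Zeb1∆M, with medians of -2.96 and -2.84. Among them Mov10 (an RNA helicase) was 16-fold and 13.4-fold lower in Zeb1WT and Zeb1∆M, Epsti1 12.2-fold and 13-fold, Sp140 (a chromatin reader) 8.56-fold and 9.22-fold and Daxx (a histone chaperone) 20.9-fold and 13.6-fold. The riser in both was Ifitm1 (2.66 and 3.26), a relative of Ifitm3 named after its values were seen. In the 12 members with an ISRE core, the median log2 fold change was -3.95 in Zeb1WT and -3.40 in Zeb1∆M, and in the 15 tested members with a promoter and no core -3.96 and -3.22.

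Markers of cell state moved with these falls, beside 18% of all genes lower and 18.6% higher in Zeb1WT and 16.9% and 15.8% in Zeb1∆M. Of 8 genes of large peritoneal macrophages, 6 were lower and 1 higher in LPS + LPS in each genotype, and their summed level went from 8180 to 10200 CPM down to 554 to 689 CPM in Zeb1WT and from 11800 to 12700 down to 1780 to 2620 in Zeb1∆M. Of 7 genes of monocytes and small peritoneal macrophages, 2 were higher and 1 lower in each genotype, with a sum of 5410 to 6210 CPM in Zeb1WT LPS and 4130 to 9580 in LPS + LPS. Genes of plasmacytoid dendritic cells, which make much interferon, summed to 114 to 145 CPM in Zeb1WT LPS and 25 to 33.9 in LPS + LPS, with Siglech and Klk1 at 0 in Zeb1WT LPS. That LPS sum was nearly all Tcf4 (74.9 to 90.9 CPM) and Ly6d (20.9 to 68.9), and 4 of the 6 genes stood under 1 CPM. In Zeb1WT LPS + LPS, Siglech stood at 0.328, 0.0764 and 0 CPM. The list thus does not show whether these cells were present or lost. Genes of conventional dendritic cells summed to 471 to 825 CPM in Zeb1WT LPS and 7.11 to 19.4 in LPS + LPS, and to 284 to 1050 and 6.21 to 9.85 in Zeb1∆M. In Zeb1WT LPS nearly all of that sum was Cd209a (305 to 650 CPM) and Ccr7 (161 to 205). Xcr1 stood at 0.659 to 0.941 CPM there and at 0.439 to 0.535 in LPS + LPS, so the fall in sum rests on few genes. Of 7 B cell genes 6 were lower in Zeb1WT (413 to 629 CPM in LPS, 124 to 181 in LPS + LPS) and 1 in Zeb1∆M (99.2 to 153 and 121 to 237). Of 10 neutrophil genes 4 were higher in Zeb1WT (737 to 1040 CPM in LPS, 921 to 3430 in LPS + LPS), and in Zeb1∆M 5 were higher and 1 lower (594 to 723 and 795 to 1380). Csf3r, at 487 to 614 CPM in the LPS libraries, made up much of the neutrophil sums after LPS. The median changes over the 10 neutrophil genes were 0.86 and 1.6. The part of these shifts in the result was not tested. With library totals alone, 34 members were still lower in Zeb1WT and 33 in Zeb1∆M, with medians of -3.01 and -2.67. Of all genes, 1176 and 944 were then lower and 5337 and 4353 higher.

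Whether the fall differed between genotypes was tested as an interaction. Of 36 members, 30 had an interaction above 0, meaning a smaller fall in Zeb1∆M, with a median of 0.28. Over all 13443 genes, 6132 lay above 0, with a median of -0.05. edgeR called 0 members (0% of all genes), and DESeq2 called 0, beside 74 of all genes. At an unadjusted p under 0.05 in edgeR were 7 members, beside 939 of all 13443 genes. The largest were Ifit2 at 2.08 ± 0.63 (edgeR adjusted p = 0.36), Mx2 at 1.54 ± 0.46 (0.34) and Ifit1 at 1.44 ± 0.51 (0.50). Replicate 3 of Zeb1∆M LPS + LPS was the highest of its group in 32 of 36 members, beside 33.1% of all tested genes. Without that library, Ifit2 had an interaction of 1.0 (edgeR adjusted p = 0.87) and Ifit1 at 0.81 (edgeR adjusted p = 0.98).

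Metformin before a single LPS dose was compared with a single dose, using the same LPS libraries as above. In Zeb1WT, 19 of 36 members were higher, against 13% of all genes, and 0 lower (12.3% of all genes), with a median of 0.74. With library totals alone 3 were higher and 2 lower, beside 466 higher and 5131 lower of all genes. Of the members 18 then stood above and 18 below 0. In Zeb1∆M, 14 were higher, against 12.6% of all genes, and 0 lower (13.6%), with a median of 0.58. With library totals alone 11 were higher and 0 lower, beside 930 and 2343 of all genes, and the median was 0.36. That scaling moved the median of all genes to -0.74 in Zeb1WT and -0.27 in Zeb1∆M. The median of members lay above that of all genes by 0.77 with TMM factors and 0.74 with library totals in Zeb1WT. In Zeb1∆M the gap was 0.62 and 0.63. A change of scaling shifts all genes nearly alike, so this gap cannot test the scaling. The direction of single members in Zeb1WT depended on the scaling. Called in both genotypes were 9 members: Ifit1, Ifit2, Ifit3, Rsad2, Ifih1, Cmpk2, Eif2ak2, Slfn8 and Ifnar1. Only 3 of the 19 calls in Zeb1WT and 6 of the 14 in Zeb1∆M held in every alternative processing. Of the 9 members, Cmpk2 alone held in every alternative of both genotypes.

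The IFIT genes were higher as a group, with 4 of 4 called in Zeb1WT and 3 of 4 in Zeb1∆M. Ifit1 reached 10930, 9308 and 19450 CPM in Zeb1WT and 6297, 6301 and 7421 in Zeb1∆M, above every LPS library of the same genotype. Its log2 fold changes were 1.69 ± 0.37 (edgeR adjusted p = 0.0029) and 1.07 ± 0.37 (edgeR adjusted p = 0.038), and 0.90 and 0.86 with library totals alone. Ifit2 reached 3514, 4304 and 6830 CPM in Zeb1WT and 2741, 3033 and 3235 in Zeb1∆M, also above the LPS libraries, with changes of 1.62 ± 0.44 and 1.97 ± 0.45. Replicate 3 stood highest in Zeb1WT for both. Ifit3 reached 3675, 3550 and 6008 CPM in Zeb1WT and 2517, 2848 and 2118 in Zeb1∆M, and its LPS libraries had stood at 1045, 1185 and 2003 and at 1133, 965.0 and 1095. No Ifit3 library of either genotype overlapped, and the changes were 1.64 ± 0.38 and 1.23 ± 0.38. Ifit3b reached 200.4, 179.1 and 412.0 CPM in Zeb1WT, from 87.9, 71.9 and 135.7, and 68.0, 71.5 and 52.4 in Zeb1∆M, from 35.2, 29.1 and 35.3. It was called in Zeb1WT alone (1.42 and 0.95), a difference of genotypes that the interaction did not call. With library totals alone, Ifit2, Ifit3 and Ifit3b were not called in Zeb1WT (0.86, 0.87 and 0.60).

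Cmpk2 and Rsad2 were higher in both genotypes. Cmpk2 reached 3651, 3821 and 6235 CPM in Zeb1WT and 2720, 2889 and 2376 in Zeb1∆M, with changes of 1.64 ± 0.29 (edgeR adjusted p = 5.6e-04) and 1.60 ± 0.29 (edgeR adjusted p = 8e-04). It kept its call in all 13 alternatives of each genotype, among them library totals alone (0.88 and 1.36). Rsad2 reached 14470, 10420 and 15110 CPM and 6865, 6651 and 5799 CPM, with changes of 1.37 ± 0.35 in Zeb1WT and 2.82-fold in Zeb1∆M, and library totals alone left it uncalled in Zeb1WT (0.63).

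Of the membrane proteins, Ifitm3 had the largest rise in Zeb1WT. It reached 7095, 4324 and 10250 CPM there and 2232, 2114 and 2858 in Zeb1∆M, all above the LPS libraries of the same genotype. The change was 1.74 ± 0.26 in Zeb1WT (edgeR adjusted p = 1.6e-04, 0.94 with library totals alone) and 0.48 ± 0.26 in Zeb1∆M (edgeR adjusted p = 0.17). Mx1 reached 1231, 1097 and 1988 CPM in Zeb1WT (0.72 ± 0.28, edgeR adjusted p = 0.070) and 1071, 960.5 and 1041 in Zeb1∆M (0.97 ± 0.28, edgeR adjusted p = 0.019). Bst2 stood at 276.0, 252.6 and 401.7 CPM and 239.9, 239.6 and 215.6 CPM and was called in neither. The direction of Mx1 and Bst2 in Zeb1WT turned with library totals alone (-0.05 and -0.23).

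Further members are given by role. Usp18 reached 2941, 3052 and 6596 CPM in Zeb1WT (1.06 ± 0.31, edgeR adjusted p = 0.019) and 2068, 2198 and 2584 in Zeb1∆M (0.66 ± 0.31, edgeR adjusted p = 0.13), and neither Isg15 nor Herc6 was called. Oasl1 reached 1977, 2040 and 3110 CPM in Zeb1WT (0.64, edgeR adjusted p = 0.095) and 1512, 1421 and 1662 in Zeb1∆M (0.94 ± 0.28, edgeR adjusted p = 0.018), where it was the one OAS gene called, as Oasl2 was in Zeb1WT. Oas1a stood at 1503, 1380 and 2938 CPM in Zeb1WT and 866.5, 909.6 and 1129 in Zeb1∆M, where its estimate lay below 0 (-0.34, edgeR adjusted p = 0.37). The family thus did not move as one. Ifih1 reached 1408, 1742 and 2415 CPM and 1642, 1675 and 1477 CPM, with changes of 0.79 ± 0.20 and 0.76 ± 0.20 (edgeR adjusted p = 0.0083 and 0.011), and 0.04 in Zeb1WT with library totals alone. Dhx58 stood at 379.2, 508.9 and 701.9 CPM in Zeb1WT, where it overlapped LPS, and at 504.8, 501.7 and 448.5 in Zeb1∆M, where it was called (0.62 ± 0.22, edgeR adjusted p = 0.041). Trim30a reached 2218, 1850 and 3190 CPM in Zeb1WT (1.16 ± 0.21, edgeR adjusted p = 7.5e-04) and 1314, 1307 and 1498 in Zeb1∆M (0.43 ± 0.21, edgeR adjusted p = 0.14). Rtp4 reached 1144, 809.6 and 1737 CPM (1.15 ± 0.27, edgeR adjusted p = 0.0047) and 524.6, 537.9 and 746.3 CPM (0.27 ± 0.27, edgeR adjusted p = 0.49). For both genes the Zeb1WT libraries lay above the LPS libraries, and library totals alone left both uncalled (0.39 and 0.36).

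Calls of the receptor genes after Metformin + LPS were lost with library totals alone. Ifnar1 stood at 279.1, 347.3 and 380.9 CPM in Zeb1WT and 356.0, 332.2 and 253.2 in Zeb1∆M, with changes of 0.77 ± 0.19 and 0.53 ± 0.19, and 0.05 and 0.30, uncalled, with library totals alone. Ifnar2 stood at 429.9, 347.4 and 403.6 CPM and 306.2, 296.1 and 293.3 CPM, with changes of 0.50 ± 0.15 and 0.04 ± 0.15, and turned to -0.22 in Zeb1WT with library totals alone.

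**Figure D3:**
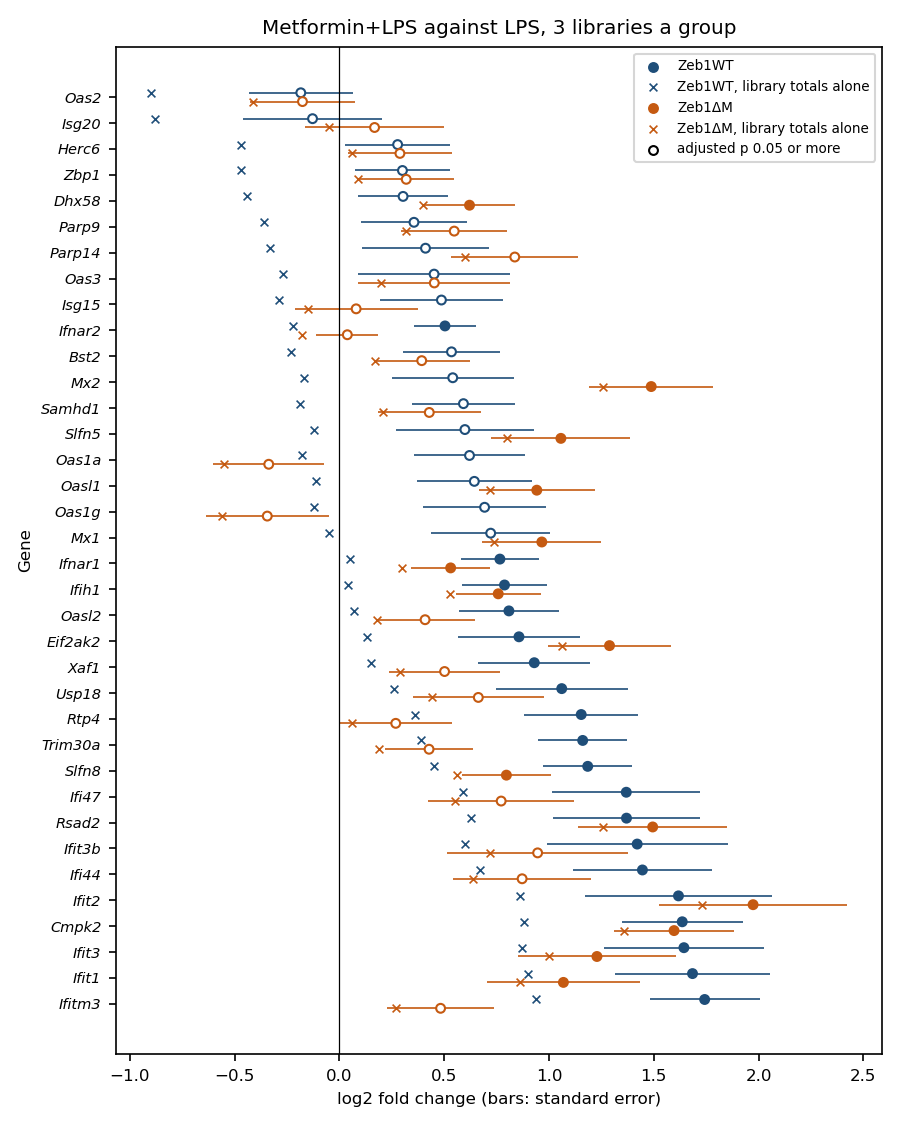
Log2 fold change of Metformin + LPS against LPS for the 36 tested genes in Zeb1WT (blue) and Zeb1∆M (orange), with standard errors as bars, open points for genes that missed an adjusted p of 0.05, and crosses for scaling by library totals alone. The Zeb1WT crosses sit about as many left as right of 0 (18 and 18), while most points lie right of it.

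Other genes of the pathway were read in the same comparison, in which 13% of all genes were higher and 12.3% lower in Zeb1WT and 12.6% and 13.6% in Zeb1∆M. Of the 53 other interferon-induced genes, 21 were higher and 0 lower in Zeb1WT (median 0.52) and 10 and 0 in Zeb1∆M (median 0.37). Of 10 receptor signalling genes, 1 was higher and 1 lower in Zeb1WT and 1 and 2 in Zeb1∆M, near the share over all genes, with Jak1 lower in both (-0.64 and -0.72) and Stat2 and Irf9 called in neither. Of 10 genes from the LPS receptor to interferon beta, 2 were higher and 2 lower in Zeb1WT and 1 and 0 in Zeb1∆M. Ticam2 was 4.39-fold lower in Zeb1WT (-2.13, edgeR adjusted p = 0.0011). Irf7 stood at 3435, 3125 and 6320 CPM in Zeb1WT (0.73, edgeR adjusted p = 0.089) and 2200, 2172 and 2124 in Zeb1∆M. Among markers, 4 of 7 genes of monocytes and small peritoneal macrophages were higher in Zeb1WT and 2 in Zeb1∆M, and the sum reached 6240 to 23400 CPM in Zeb1WT from 5410 to 6210. Of 6 macrophage genes, 5 were higher and 0 lower in Zeb1WT (43000 to 103000 CPM in sum, from 43700 to 57000) and 4 higher and 1 lower in Zeb1∆M (17900 to 25000, from 26600 to 42000). Most of this sum was Lyz2, the gene that holds LysM Cre. Lyz2 stood at 35600 to 92600 CPM in Zeb1WT, from 39700 to 51900. In Zeb1∆M it stood at 10600 to 18600 CPM, from 22500 to 38100, and was the 1 gene lower there. Of 10 neutrophil genes 7 were lower in each genotype (500 to 591 CPM from 737 to 1040 in Zeb1WT, and 423 to 501 from 594 to 723 in Zeb1∆M). Csf3r made up most of the neutrophil sums after Metformin + LPS (372 to 541 and 417 to 490 CPM). The median changes over the 10 neutrophil genes were -2.0 and -3.6. Of 7 B cell genes 6 were lower in Zeb1WT (102 to 173 CPM from 413 to 629) and 5 in Zeb1∆M (26.9 to 36.9 from 99.2 to 153). The 3 genes over ribosomal RNA took 6.73 to 12.4% of counts in Zeb1WT Metformin + LPS and 4.24 to 14% in Zeb1∆M, above every LPS library. Without these 3 genes 19 members were still called in Zeb1WT and 15 in Zeb1∆M. The part of these markers in the result was not tested.

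Replicate 3 of Zeb1WT Metformin + LPS was the highest of its group in 33 of 36 members, beside 30.8% of all tested genes. It had the lowest TMM factor of all libraries (0.445). It also had the highest sums of its group for monocyte markers (23400 CPM, against 9500 and 6240), macrophage markers (103000, against 80300 and 43000) and large peritoneal macrophage markers (11300, against 8960 and 7850). Its B cell sum was the lowest (102, against 173 and 162). Without it 13 members were called higher in Zeb1WT. No member was called in the interaction of genotype with Metformin (21 genes, 0.156% of all), and DESeq2 called 1, Ifitm3, beside 300 of all 13443 genes. At an unadjusted p under 0.05 in edgeR were 7 members, beside 1832 of all 13443 genes. In edgeR the interaction of Ifitm3 was -1.26 ± 0.36 (adjusted p = 0.15).

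Zeb1∆M was then compared with Zeb1WT within each treatment, the question of the study. After LPS, edgeR called 0 members higher (0.208% of all genes) and 0 lower (0.937%), while DESeq2 called 4, all lower, Ifit3b, Mx2, Oasl1 and Rsad2. Of all 13443 genes DESeq2 called 505 in either direction. At an unadjusted p under 0.05 in edgeR were 7 members, beside 1844 of all 13443 genes. The median was -0.25, beside 0.01 over all genes, and 31 of 36 members lay below 0, beside 6530 of all 13443 genes. In 13 members every Zeb1∆M library lay below every Zeb1WT library, beside 10.8% of all genes, and in 0 above (10.1%). Ifit3b stood at 87.9, 71.9 and 135.7 CPM in Zeb1WT and 35.2, 29.1 and 35.3 in Zeb1∆M, an estimate of -1.57 ± 0.44 (edgeR adjusted p = 0.094). Rsad2, with the levels given above, was at -1.18 ± 0.35 (edgeR adjusted p = 0.12) and Oasl1 at -0.93 ± 0.28 (edgeR adjusted p = 0.12). These 3 did not overlap between genotypes and missed the threshold. Ifit1 overlapped, with -0.37 and an interval from -1.08 to 0.34. Of the other markers, 4 of 10 neutrophil genes (594 to 723 CPM against 737 to 1040) and 4 of 7 B cell genes (99.2 to 153 CPM against 413 to 629) were lower in Zeb1∆M after LPS. Csf3r made up much of the neutrophil sums (560 to 614 against 487 to 510 CPM). The median over the 10 neutrophil genes was -2.75, with 9 below 0 and 1 above, and S100a8 stood at 10.1 to 29.2 against 66.4 to 151 CPM. All 7 genes of monocytes and small peritoneal macrophages lay below 0, with 1 called and a median of -0.98 (2730 to 4450 CPM in sum against 5410 to 6210). The part of these markers in these values was not tested.

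After LPS + LPS, edgeR called 0 members higher (0.461% of all genes) and 0 lower (0.216%), and DESeq2 called 2, both lower, Mx1 and Samhd1. Of all 13443 genes DESeq2 called 382 in either direction. At an unadjusted p under 0.05 in edgeR were 7 members, beside 1575 of all 13443 genes. Estimates ran from -1.10 in Mx1 (edgeR adjusted p = 0.13) to 1.07 in Ifit1 (edgeR adjusted p = 0.22), with a median of 0.10. Every Zeb1∆M library lay below Zeb1WT in 1 member, Samhd1 (8.79% of all genes), and above it in 1, Ifnar2 (9.07%). Without replicate 1 of Zeb1WT LPS + LPS, 2 members were called, Eif2ak2 higher and Ifit3b lower, and without replicate 3 of that group 1 was, Mx1. Of 8 large peritoneal macrophage genes, 5 were higher in Zeb1∆M LPS + LPS (1780 to 2620 CPM in sum, against 554 to 689). All 10 neutrophil genes lay below 0, with 0 called and a median of -1.6 (795 to 1380 CPM in sum, against 921 to 3430). All 7 genes of monocytes and small peritoneal macrophages lay below 0 as well, with 0 called and a median of -0.82. Of 7 B cell genes 5 lay above 0 and 2 below, with 0 called. The part of these markers was not tested.

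After Metformin + LPS, 5 members were lower in Zeb1∆M, against 4.61% of all genes, and 0 higher (1.26%). With library totals alone, Ifit3b and Ifitm3 were lower and Parp14 higher, beside 324 lower and 3274 higher of all genes. The median over members then went from -0.50 to 0.13, that over all genes from 0.03 to 0.60. The libraries did not overlap in 19 members, all lower in Zeb1∆M, beside 12.9% of all genes. Ifitm3 stood at 7095, 4324 and 10250 CPM in Zeb1WT and 2232, 2114 and 2858 in Zeb1∆M, 3.01-fold lower (-1.59 ± 0.26, edgeR adjusted p = 0.0022), and it kept its call in all 13 alternatives. Ifit3b was 4.12-fold lower (-2.04 ± 0.44, edgeR adjusted p = 0.010), from 200.4, 179.1 and 412.0 CPM to 68.0, 71.5 and 52.4; its reads are partly shared with Ifit3, which was not called (-0.82, edgeR adjusted p = 0.22). Rtp4 (-1.03 ± 0.27, edgeR adjusted p = 0.030), Oas1a (2-fold lower, 0.034) and Trim30a (-0.82 ± 0.21, 0.027) were about 1.76 to 2.04-fold lower, and none overlapped between genotypes. With library totals alone these 3 were not called (-0.36, -0.33 and -0.18).

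Without replicate 3 of Zeb1WT Metformin + LPS, 1 of the 5 was called, Ifitm3, and without replicate 1 or 2 of Zeb1∆M Metformin + LPS 2 were, Ifitm3 and Ifit3b. All 7 genes of monocytes and small peritoneal macrophages were lower in Zeb1∆M after Metformin + LPS as well, with sums of 2490 to 4710 CPM against 6240 to 23400, as were 6 of 10 neutrophil genes (423 to 501 CPM against 500 to 591, Ly6g and Ngp at 0 in Zeb1∆M) and 5 of 7 B cell genes (26.9 to 36.9 CPM against 102 to 173). Csf3r made up most of the neutrophil sums (417 to 490 against 372 to 541 CPM), while the median over the 10 neutrophil genes was -3.37. The part of these markers in the result was not tested. Of the 53 other interferon-induced genes, 11 were lower in Zeb1∆M (4.61% of all genes) and 0 higher (1.26%).

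**Figure D4:**
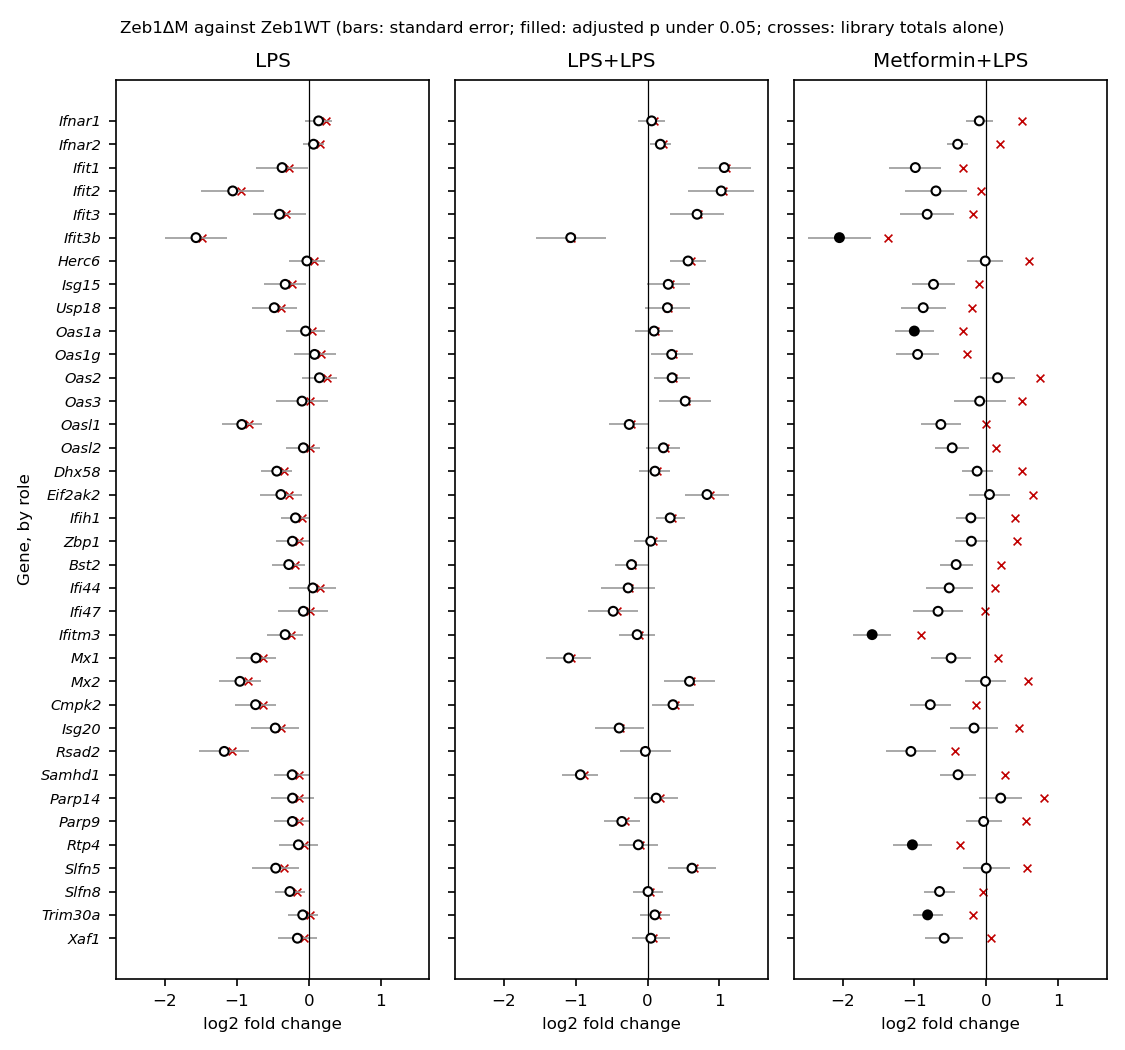
Log2 fold change of Zeb1∆M against Zeb1WT in LPS, LPS + LPS and Metformin + LPS (panels), for the 36 tested genes ordered by role, with standard errors as bars, filled points under an adjusted p of 0.05 and red crosses for scaling by library totals alone. Filled points occur in the Metformin + LPS panel only (Ifit3b, Oas1a, Ifitm3, Rtp4 and Trim30a), where the crosses lie to the right of the points.

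**Figure D5:**
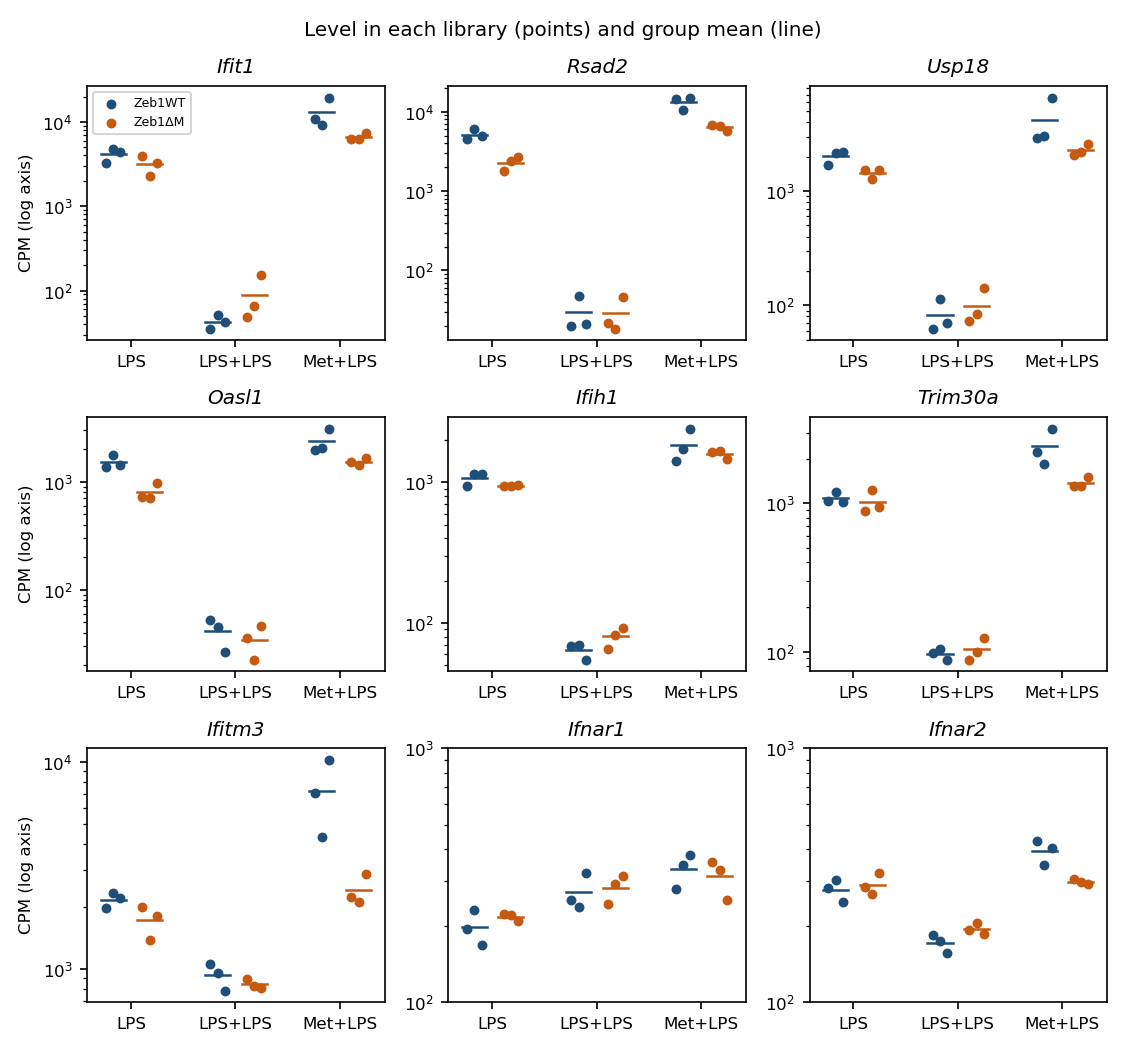
Levels of 9 genes in each library (points) and the group mean (line), in CPM on a log axis, for Zeb1WT (blue) and Zeb1∆M (orange) by treatment (Met+LPS stands for Metformin + LPS). The induced genes fall in LPS + LPS, Ifitm3 least, and Ifnar1 does not.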

How the data were processed

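RNA was sequenced from 18 pools of sorted peritoneal macrophages (TruSeq Stranded mRNA). The authors deposited whole-number counts per gene (STAR, RSEM and DESeq2 on GRCm38 per the labels, versions not given), and no counting strand is given in the sources used here. All 18 columns matched a sample. Genes passing filterByExpr (13443 of 55573) entered 1 edgeR 4.0.16 quasi-likelihood fit (R 4.3.3) over 18 libraries, with TMM factors, no replicate block and Benjamini-Hochberg adjustment per comparison, called at an adjusted p under 0.05. The numbers did not pair the samples (correlations of deviations -0.16 to 0.23). Members and lists were chosen with earlier results of these data known. Values by library are given for the receptors and ligand, the highest-count member of each role, the 3 largest and 3 smallest called changes per treatment contrast and every member called between genotypes, and up to 4 genes per list. An item withheld for evaluation is not reported here. Alternatives were median-of-ratios factors, DESeq2 1.42.0, no filter on low counts, replicate number as a block, a fit of the compared groups alone and each library left out. Library totals alone and removal of 3 ribosomal RNA genes were added after seeing the data. The fit was tested on simulated data. Promoters came from RefSeq (GRCm38.p6) and positions from GENCODE.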

Additional observations from a re-analysis of the deposited data

How the results depend on the processing

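Against 35 members called in each genotype, the LPS + LPS comparison gave 33 to 36 under every alternative. Between genotypes, the main counts of 0 (LPS), 0 (LPS + LPS) and 5 (Metformin + LPS) became 4, 2 and 12 with DESeq2 and 5, 6 and 12 with no count filter. With only the groups compared they were 3 in LPS and 2 in Metformin + LPS, and library totals alone gave 3 in Metformin + LPS. Leaving out 1 library gave 0 in LPS, 0 to 2 in LPS + LPS and 1 to 7 in Metformin + LPS. For Metformin + LPS against LPS, library totals alone gave 5 called members in Zeb1WT in place of 19. Leaving out 1 library gave 12 (without replicate 1 of Zeb1WT LPS) to 23 in Zeb1WT and, in place of 14, 8 (without replicate 1 or 2 of Zeb1∆M LPS or replicate 1 of Zeb1∆M Metformin + LPS) to 14 in Zeb1∆M. The interaction counts of 0 became 4 (LPS + LPS) and 1 (Metformin) with no count filter and 1 (Metformin) with DESeq2, and 0 to 1 (Metformin) with 1 library left out. With library totals alone Ifnar2 turned to 0.01 in LPS + LPS of Zeb1∆M and to -0.22 in Metformin + LPS of Zeb1WT. Over all genes, calls between genotypes were 154, 91 and 789, against 505, 382 and 1371 with DESeq2 and 738, 640 and 1213 with no filter. With library totals alone they were 3598 in Metformin + LPS, and 5597 in place of 3392 for Metformin + LPS against LPS in Zeb1WT. With only the groups compared 0 were called in LPS + LPS and 505 in Metformin + LPS. Interaction calls of 0 (LPS + LPS) and 21 (Metformin) became 74 and 300 with DESeq2 and 236 and 601 with no filter, 131 (Metformin) with library totals alone, 44 (Metformin) with only the groups compared and 2 (LPS + LPS) with median-of-ratios factors. The replicate block gave 35 and 35 for LPS + LPS, 19 and 13 for Metformin, 0, 0 and 5 between genotypes and 0 for both interactions, changing no other count of members. The cause of these shifts was not tested.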

Other observations

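Of 22 further genes listed for interferons and their receptors, 5 had enough counts to be tested (Ifng, Ifngr1, Ifngr2, Ifnlr1 and Il10rb), and the interferon alpha genes were not among them. Ifng, which encodes type II interferon and is made mainly by lymphocytes, stood at 1.97, 4.56 and 2.73 CPM in Zeb1WT LPS, at 0.219, 0.0382 and 0.157 in Zeb1WT LPS + LPS and at 0.520, 0.510 and 0.306 in Zeb1∆M LPS, and was at 0 in all Zeb1∆M LPS + LPS libraries. Ifngr2, a chain of its receptor, stood at 71.4, 64.4 and 68.0 CPM in Zeb1WT LPS and at 140.8, 189.2 and 181.2 in LPS + LPS. It rose by 1.33 (edgeR adjusted p = 1.1e-05) in Zeb1WT and in Zeb1∆M by 0.83 (edgeR adjusted p = 0.0012), opposite to Ifnar2, while Ifngr1 was called in neither (0.39 and 0.08). After Metformin + LPS, Ifngr2 was called lower in Zeb1∆M (-0.90, edgeR adjusted p = 0.0013).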
